A study of Sus scrofa with 15 samples.

Results

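Leptin and retinol-binding protein 4 are adipokines, proteins that fat tissue releases into the blood, and their transcripts were followed here in the backfat of 15 castrated male Iberian pigs. Members were all probe sets annotated with exactly the symbol LEP or RBP4. There were 5 of them among the 3272 probe sets of the table, 4 for LEP and 1 for RBP4. Iberian pigs are a local breed known for heavy fat deposition. Of the animals, 7 were fed a control diet and 8 a high-oleic diet, named for oleic acid, a monounsaturated fatty acid abundant in pig fat. Diets were given from 28 kg of live weight to a planned slaughter weight of 110 kg, over 24 weeks. The high-oleic feed held 3360 kcal per kg and the control feed 3130, and control pigs were given 10% more feed so that energy and protein intake matched. All animals shared breed, sex and castration, and the samples are labelled as backfat of the inner layer. Each animal had its own Affymetrix porcine array and counted as 1 replicate. The comparison asks how oleic acid in the feed bears on fat tissue expression, here of these adipokines.

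Leptin is made by fat cells and signals the size of the body's fat stores to the brain through the leptin receptor, which acts by way of the kinase JAK2 and STAT transcription factors. Its transcript is known to be higher in large fat cells and in fed animals, and lower in fasting. RBP4 carries retinol, the alcohol form of vitamin A, in blood. The liver is its main source and fat tissue a further one. Retinol taken up by cells is bound inside them by proteins such as RBP7 and, once oxidised to retinoic acid, by CRABP2, and retinoic acid acts through nuclear receptors that pair with the retinoid X receptors.

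The 15 arrays had medians between 6.38 and 6.67 on the log2 scale, and values ran from 1.49 to 14.36. The number of arrays limits the precision. The table holds variable probe sets: in each one, 3 animals or more were about 0.59 or more away from its median, and less variable genes were not analysed here. Of the 7 markers listed for fat cells, which include ADIPOQ, FABP4 and PLIN1, 0 were measured in the table, and the labelled tissue could be checked only through LEP itself and 8 of 36 genes of lipid storage. Several arrays stood apart. Control animal 1 and high-oleic animal 2 had high interferon-induced genes, high-oleic animal 8 had the highest signal of transcripts spiked into the RNA, at 7.29, and control animal 5 weighed 133 kg. Values that moved by over 1.5 times without 1 of these animals are given with and without it.

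Each LEP probe set reads the same transcript through different oligonucleotides. The brightest has an identifier that ends in S3_at and is called S3, and the next ends in S2_at and is called S2. The other two belong to the manufacturer's control set, AFFX-Ss_Leptin_M_s_at for the middle and AFFX-Ss_Leptin_5_s_at for the 5′ part of the transcript. RBP4 was read by a single probe set. Levels of different probe sets are not compared, because each has its own brightness.

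The 4 LEP probe sets ranked the animals almost alike. The correlation of the 6 pairs over the 15 animals lay between r = 0.946 and r = 0.971, with Spearman's rho between 0.911 and 0.982. Each r had a permutation p of 1e-05, the smallest that 100000 permutations can give, and an adjusted p of 1e-05 over the 6 pairs. Among the 7 control animals r was 0.930 to 0.990 (exact permutation p of 0.000198 to 0.00218), and among the 8 high-oleic animals it was 0.912 to 0.965 (exact permutation p of 2.48e-05 to 0.00129). Without the 2 animals farthest from the median, r was 0.916 to 0.964. Because these probe sets share RNA and array, this is a check of the probes and not independent evidence about the animals. As a description, 221 pairs of probe sets from 170 other genes had a median r of 0.882. S3 and S2 had r = 0.964, and 15.4% of those pairs had a higher one.

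**Figure D1:**
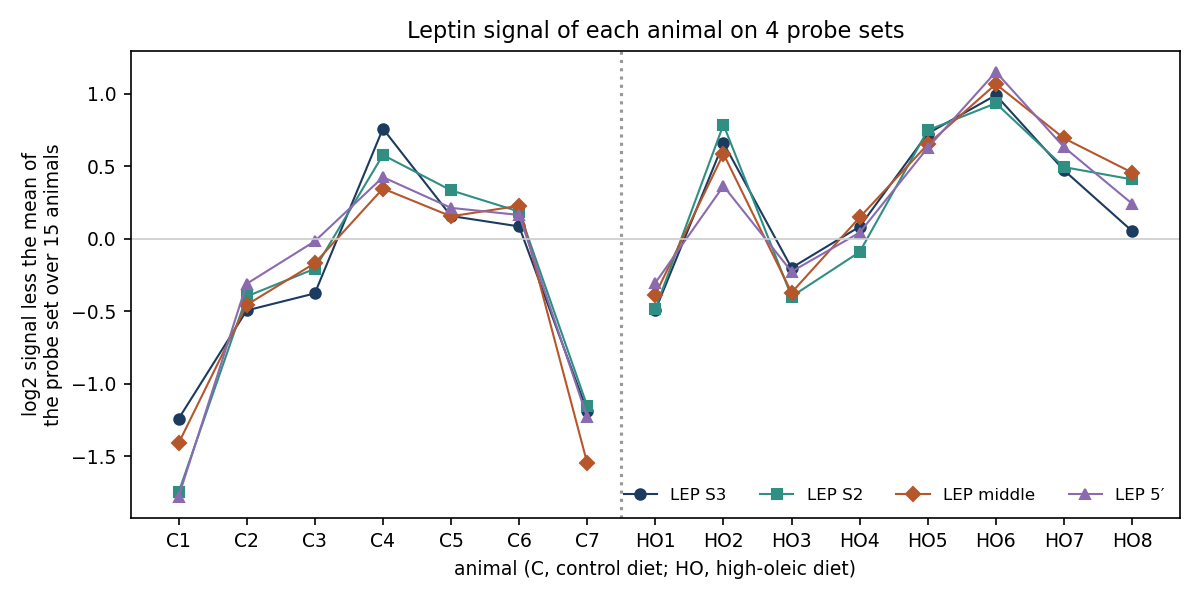
Leptin log2 signal of each animal less the mean of the same probe set over 15 animals (vertical axis), for 7 control animals (C1 to C7) and 8 high-oleic animals (HO1 to HO8) along the horizontal axis. Markers and colours are the 4 probe sets and lines only join points of 1 probe set. All 4 put control animals 1 and 7 lowest and high-oleic animal 6 highest.

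Leptin varied widely between animals. Over all 15, S3 spanned 10.29 to 12.52, a 4.70-fold range, with an SD of 0.68, and 74.2% of the 3255 probe sets tested had a smaller SD. The 5′ probe set spanned 5.37 to 8.30, a 7.61-fold range. RBP4 varied less, from 8.30 to 10.25, a 3.85-fold range with an SD of 0.50, against a median SD of 0.55 over all probe sets. On all 4 LEP probe sets the lowest animals were control animals 1 and 7, at 10.29 and 10.34 on S3.

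LEP signal had a higher mean on the high-oleic diet on all 4 probe sets, against 46.8% of all 3255 probe sets tested with a higher mean on that diet, but none passed the test. On S3 the control animals had a lowest value of 10.29, a median of 11.16 and a highest value of 12.29. The high-oleic animals had 11.04, 11.81 and 12.52. The groups overlapped: 3 control animals lay below all high-oleic animals, 1 high-oleic animal lay above all control animals, and 7 of 8 high-oleic animals lay above the control median. Across the table, 1 probe set (0.0307%) had groups that did not overlap. The means were 11.82 ± 0.51 (SD, n = 8) on the high-oleic diet and 11.20 ± 0.73 (SD, n = 7) on the control diet. They differed by 0.61 in log2 signal (SE 0.31, 95% interval -0.03 to 1.26) (1.53-fold). In a piece of tissue, more fat cells and more leptin RNA per cell cannot be told apart.

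The other LEP probe sets gave differences of the same size. S2 stood at 10.66 ± 0.55 in the high-oleic and 10.02 ± 0.84 in the control animals, 0.64 apart (95% interval -0.06 to 1.35). The middle probe set stood at 8.29 ± 0.52 and 7.52 ± 0.78, a difference of 0.76 (95% interval 0.09 to 1.44), and on it 5 of 8 high-oleic animals exceeded the highest control animal. The 5′ probe set stood at 7.47 ± 0.49 and 6.79 ± 0.83, a difference of 0.68 (95% interval -0.00410 to 1.36). In limma with Benjamini-Hochberg adjustment over all probe sets, the adjusted p was 0.999 for each of the 4, and 0.714 to 1.000 over the 121 values from other settings. The unadjusted p was 0.0620 for S3, 0.0719 for S2, 0.0281 for the middle and 0.0513 for the 5′ probe set. By the exact permutation test over all 6435 splits of the animals, two-sided, it was 0.0797, 0.0993, 0.0409 and 0.0699, with an adjusted p of 0.999 for each. The middle and 5′ probe sets were read from the fit that kept the control probe sets. Of the 3255 probe sets, 0 (0%) passed the test after adjustment, and 128 (3.93%) had an unadjusted p under 0.05 in limma. By the exact permutation test 136 (4.18%) did. Without control animal 1, which had the lowest leptin on 3 of the 4 probe sets, the difference was 0.46 on S3, 0.41 on S2 and 0.44 on the 5′ probe set. Without both animals with high interferon-induced genes it was 0.41, 0.34 and 0.44, and 0.56 on the middle probe set. With the spiked signal in the model the difference was 0.48 on S3, 0.44 on S2, 0.59 on the middle and 0.51 on the 5′ probe set. S3 had 157 probe sets with a smaller p than its own. Within-animal differences between probe sets did not separate the diets detectably: over the 6 pairs, the difference between diets lay between -0.15 and 0.09, with a lowest exact permutation p of 0.200 and a lowest adjusted p of 0.740.

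RBP4 also had a higher mean on the high-oleic diet, by less than the spread between animals. The control animals ran from 8.32 over a median of 8.98 to 9.39, and the high-oleic animals from 8.30 over 9.33 to 10.25. The groups overlapped over most of their range, with the lowest value of all in high-oleic animal 4 and the highest in high-oleic animal 8. The means were 9.24 ± 0.56 (SD, n = 8) and 8.89 ± 0.38 (SD, n = 7), 0.35 apart (SE 0.27, 95% interval -0.21 to 0.91). Limma gave an unadjusted p of 0.203 and an adjusted p of 0.999, with 0.880 to 1.000 over the 31 other settings, and the exact permutation p was 0.185. Without high-oleic animal 8 the difference was 0.21, and with the spiked signal in the model, which was highest in that animal, it was 0.20. The difference between diets was 0.26 larger for LEP on S3 than for RBP4, with a standard error of 0.45 and an exact permutation p of 0.554 (adjusted p = 0.554 over the 4 LEP probe sets).

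**Figure D2:**
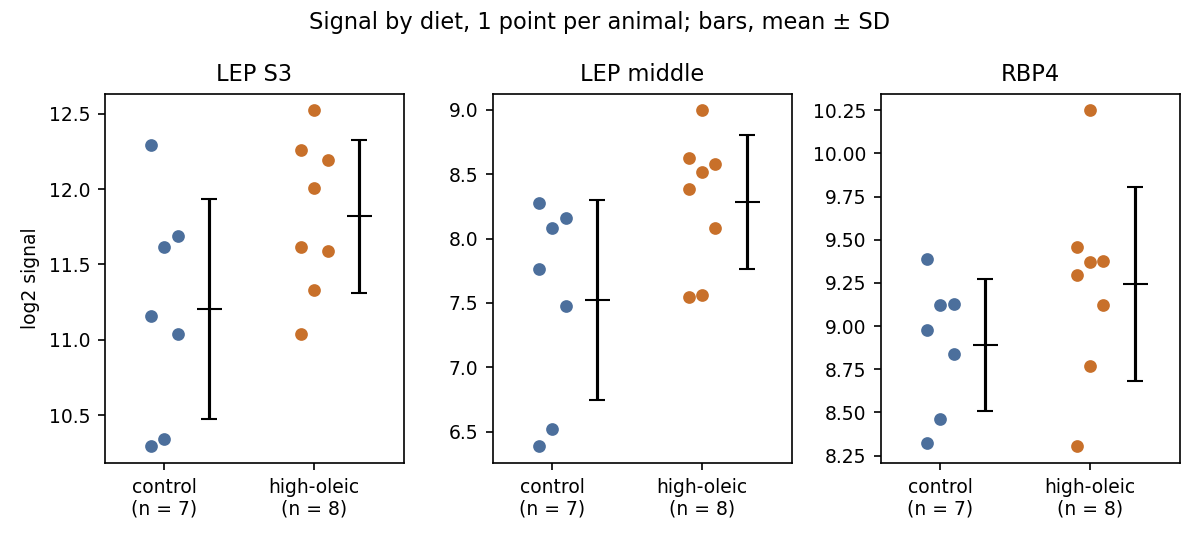
Log2 signal by diet for the leptin probe sets S3 and middle and for RBP4, with 1 point per animal and bars for mean ± SD (7 control, 8 high-oleic animals; each panel has its own axis). The groups overlap in each panel, and the lowest leptin values, 10.29 and 10.34 on S3, are in control animals.

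The diet groups differed in live weight. High-oleic animals weighed 109.2 ± 3.52 kg (SD, n = 8) and control animals 117.2 ± 7.32 kg (SD, n = 7), -8.03 kg between them (two-sided exact permutation p = 0.00435). The lighter group thus had the higher mean leptin signal. High-oleic animals ran from 104.5 to 116 kg and control animals from 112 to 133 kg, so few weights were shared. These weights were also reached on the diets, so diet and live weight cannot be fully told apart. The models with live weight below carry a fitted line beyond the shared weights. With live weight in the model the diet difference of LEP was 0.98 on S3 (95% interval 0.18 to 1.77), 1.05 on S2, 1.13 on the middle and 1.06 on the 5′ probe set. Without control animal 5, at 133 kg, these became 1.13, 1.14, 1.24 and 1.19. In limma the adjusted p stayed between 0.976 and 1.000 in these models. Among the 10 animals of 109.5 to 118 kg, 6 control and 4 high-oleic, the differences were 0.68, 0.64, 0.78 and 0.73, close to those in all animals. The 95% interval was -0.137 to 1.496 on S3 and -0.26 to 1.55 on S2. The high-oleic animals of this window weighed 109.5, 110, 111.5 and 116 kg. Only the last of them outweighed the lightest control animal, at 112 kg. The window thus did not match the diets on live weight, and a difference at equal weight was not tested. For RBP4, live weight in the model gave 0.22 (95% interval -0.50 to 0.94), or 0.08 without control animal 5, and the weight window gave 0.12.

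**Figure D3:**
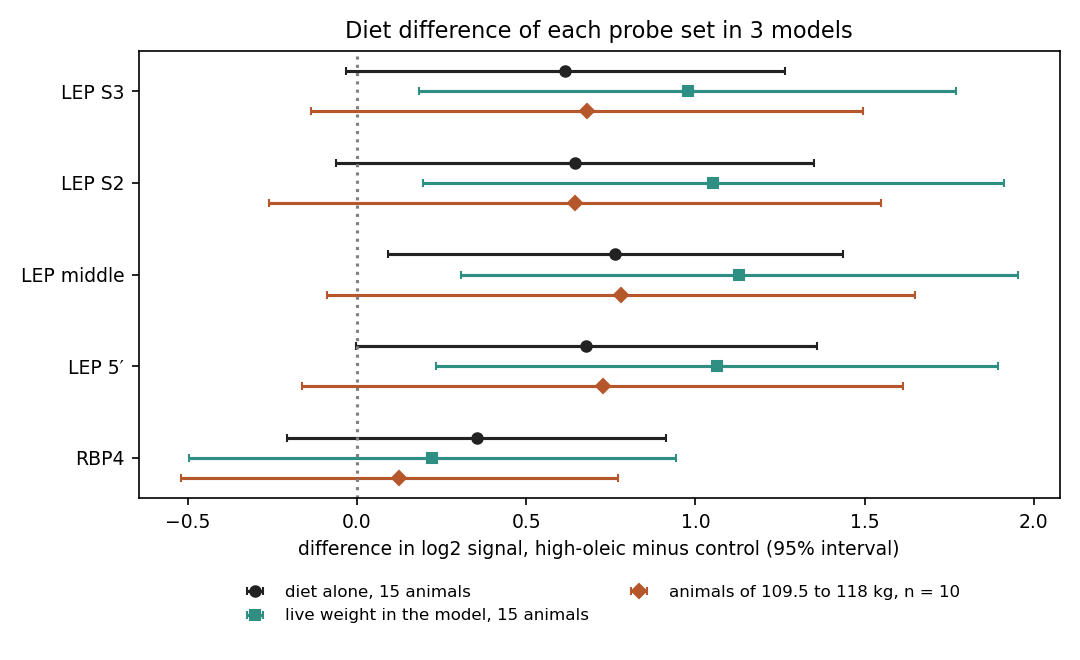
Difference in log2 signal, high-oleic minus control, with its 95% interval from limma for the 4 leptin probe sets and RBP4. Colours give diet alone, live weight in the model and the 10 animals of 109.5 to 118 kg. All 15 estimates are above 0, and the leptin estimates are largest with live weight in the model, at 0.98 on S3.

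At fixed diet, LEP signal had a positive slope on live weight that did not pass the test. It was 0.45 log2 units per 10 kg on S3 (SE 0.29, 95% interval -0.15 to 1.05), 0.51 on S2, 0.46 on the middle and 0.48 on the 5′ probe set. Limma gave unadjusted p of 0.117 to 0.142 and adjusted p of 0.916 for each, with 0.632 to 1.000 over the other settings. Of all 3255 probe sets, 0 (0%) passed the test for live weight, 124 (3.81%) had an unadjusted p under 0.05 and 54.4% had a positive slope. On S3 the slope was 0.47 within the control diet and 0.39 within the high-oleic diet, and the slope by diet term was -0.07 (95% interval -1.59 to 1.44). The same term was -0.38 on S2 and 0.04 for RBP4. It had an adjusted p of 0.996 to 0.997 in limma for all 5 probe sets, and 0 (0%) of all probe sets passed the test for it, with 162 (4.98%) at an unadjusted p under 0.05.

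The slope depended on how diet and the heaviest animal were handled. Without control animal 5 the slope was 0.80 on S3, 0.71 on the middle and 0.77 on the 5′ probe set. Without control animal 1 it was 0.31 on the 5′ probe set. Without a diet term the S3 slope was 0.00. Over the 15 animals pooled, live weight and S3 had r = 0.000151 (permutation p = 1.000, rho = 0.0321, permutation p = 0.914), and r = -0.220 once the 2 animals farthest from the median weight were left out. Within diets r was 0.469 on the control diet and 0.272 on the high-oleic diet (exact permutation p = 0.325 and 0.525). All 9 skeletal muscle markers measured had positive slopes too, with a median of 1.27 against 0.04 over all probe sets, and their part in the leptin slope was not tested. RBP4 had slopes of the other sign, -0.16 per 10 kg at fixed diet (SE 0.26, limma adjusted p = 0.921), -0.48 when control animal 5 was left out, -0.10 when control animal 2 was and -0.09 when high-oleic animal 8 was. Its pooled r with live weight was -0.359 (permutation p = 0.184) and rho -0.425 (permutation p = 0.117). Without the 2 animals farthest from the median weight r was -0.616 (permutation p = 0.0237), but it was -0.331 within control animals (exact permutation p = 0.503) and -0.0815 within high-oleic animals (exact permutation p = 0.852). Over the 5 probe sets the lowest adjusted p of the pooled r was 0.921.

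**Figure D4:**
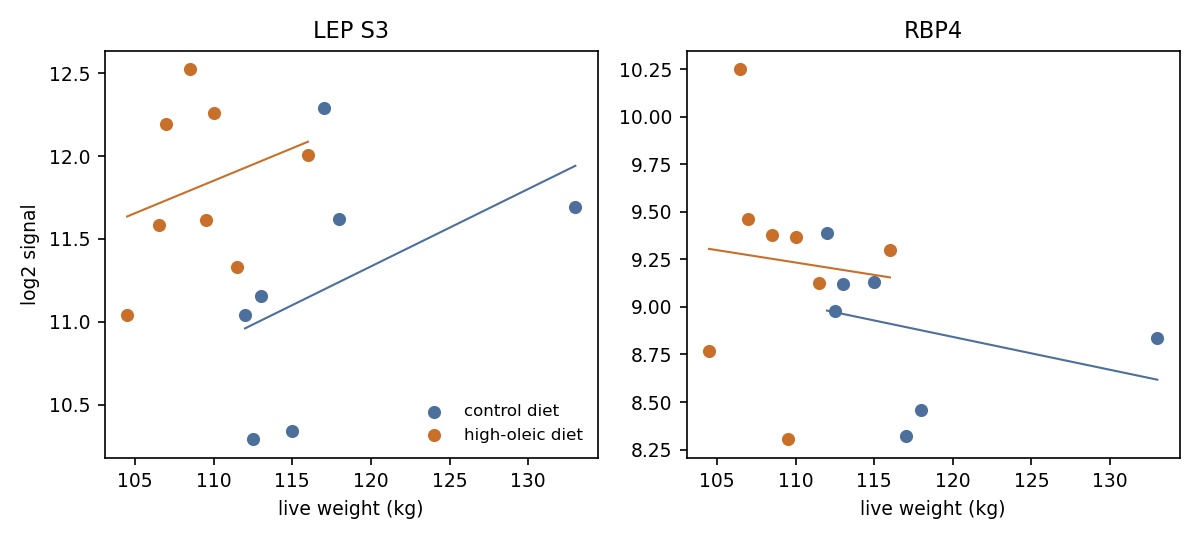
Log2 signal of leptin (probe set S3) and RBP4 against live weight in kg, 1 point per animal, with a straight line fitted within each diet (7 control, 8 high-oleic animals). The leptin lines slope upward within both diets, with the high-oleic line above, and the control line reaches to the animal of 133 kg.

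No correlation of LEP with RBP4 was detected across the animals. On S3 r was 0.0499 over 15 animals (permutation p = 0.860), rho was 0.0750 (permutation p = 0.791), and r was 0.0496 without the 2 animals farthest from the median. The other LEP probe sets and their mean gave r of 0.133 to 0.177, and the lowest adjusted p over these 5 relations was 0.785. Within diets the signs differed. Among control animals r on S3 was -0.718 (exact permutation p = 0.0690): control animal 4 had the highest leptin at 12.29 and the lowest RBP4 at 8.32, and animals 1 and 7 had low leptin with RBP4 at 8.98 and 9.13. On the other LEP probe sets the control r was weaker, at -0.592 to -0.490 (exact permutation p of 0.147 to 0.252). Among high-oleic animals r on S3 was 0.314 (exact permutation p = 0.463), and 0.658 without animal 8 (exact permutation p = 0.106). The other LEP probe sets gave 0.377 to 0.547 there (exact permutation p of 0.170 to 0.357). The difference between these correlations had a permutation p of 0.0169 on S3 and 0.0113 to 0.0444 on the others. The adjusted p was 0.0226 to 0.0444 over the 4, which read 1 transcript. This p is approximate, because the mean of each diet was taken off before the animals were relabelled over all splits. The comparison was also chosen after the values were seen, which the adjustment does not cover. It is read against 10.2% of 3254 probe sets whose correlation with RBP4 differed between diets at an unadjusted p under 0.05 by the same test. With single animals left out this permutation p was 0.00291 to 0.129, and it was above 0.05 for 6 of the 15, namely control animals 4, 6 and 7 and high-oleic animals 1, 3 and 4.

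Leptin signal tended to be higher in animals with a larger actin 3′ minus 5′ difference, a measure of RNA quality, and the relation missed the threshold after adjustment. The array reads the actin transcript near its 3′ and its 5′ end, and the log2 difference between them is larger where RNA is shortened or copied incompletely. Over 15 animals it correlated with LEP on S3 at r = 0.657 (permutation p = 0.00829) and rho = 0.729 (permutation p = 0.00311), and at r = 0.731 once the 2 farthest animals were left out. It was 0.891 on the control diet and 0.657 on the high-oleic diet (exact permutation p = 0.00873 and 0.0744). The adjusted p was 0.191 for r and 0.0715 for rho over 23 relations of the 2 genes with array measures and marker scores. The leptin transcript's own S3 minus 5′ difference did not follow actin's, at r = 0.10 (permutation p = 0.720). With the actin difference in the model, a setting chosen after seeing the data, the diet difference of S3 was 0.62 (95% interval 0.09 to 1.14, limma adjusted p = 0.999), against 0.61 without it. RBP4 had r = -0.103 with the actin difference (permutation p = 0.717), -0.794 on the control diet (exact permutation p = 0.0327) and 0.218 on the high-oleic diet (exact permutation p = 0.586).

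**Figure D5:**
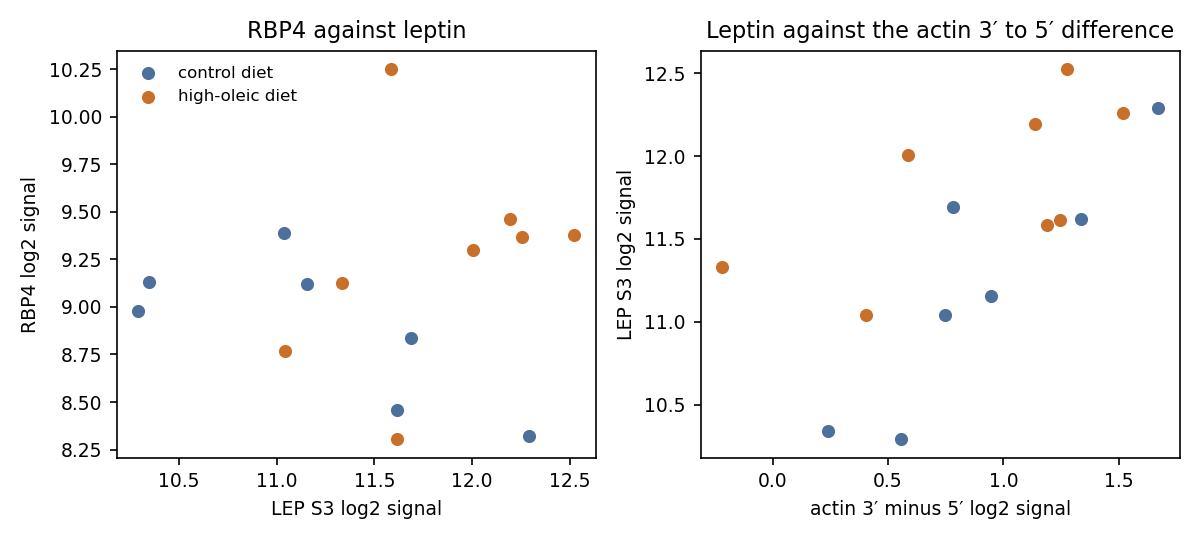
Left, RBP4 log2 signal against leptin log2 signal (probe set S3); right, leptin log2 signal against the actin 3′ minus 5′ log2 difference, with 1 point per animal and colours for the 7 control and 8 high-oleic animals. Leptin and RBP4 had r = 0.0499 over all animals, and leptin had r = 0.657 with the actin difference.

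RBP4 followed the spiked signal at r = 0.594 (permutation p = 0.0204, rho = 0.446, permutation p = 0.0968, adjusted p = 0.234), and at r = 0.304 once the 2 farthest animals were left out, of which 1 was high-oleic animal 8. Within diets it was -0.407 on the control diet and 0.826 on the high-oleic diet (exact permutation p = 0.358 and 0.00923). LEP on S3 had r = 0.462 with the spiked signal (permutation p = 0.0817), and r = 0.508 without the 2 farthest animals. Its rho was 0.589 (permutation p = 0.0225, adjusted p = 0.259), higher than that of RBP4. Of 11 fibroblast markers 4 were measured, and their mean correlated with RBP4 at r = 0.544 (permutation p = 0.0360, rho = 0.339, permutation p = 0.216, adjusted p = 0.276), or r = 0.0720 without the 2 farthest. Within diets that was 0.156 on the control diet and 0.858 on the high-oleic diet (exact permutation p = 0.725 and 0.0157). Their summed level lay between 12.90 and 14.02 in control and 12.60 and 14.46 in high-oleic animals on the log2 scale. Of 15 macrophage markers 8 were measured, with summed levels of 11.76 to 12.28 and 10.77 to 13.33, and r with RBP4 was 0.475 (permutation p = 0.0721, rho = 0.268, permutation p = 0.332), -0.783 on the control diet and 0.649 on the high-oleic diet (exact permutation p = 0.0440 and 0.0754). Of 16 skeletal muscle markers 9 were measured, and r with LEP was 0.409 (permutation p = 0.128, rho = 0.425, permutation p = 0.115), or 0.643 without the 2 farthest. Their summed level ran from 6.16 to 12.18 in control and 6.57 to 11.81 in high-oleic animals. The lowest value of a single marker was 7.00 for fibroblasts, 4.70 for macrophages and 1.73 for skeletal muscle, where the lowest value over all probe sets was 1.49. A value near that floor does not show that a marker was expressed. The part of these cell types in the values of LEP and RBP4 was not tested.

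Few genes of the leptin and retinoid pathways were in the table, and 0 of those measured passed the test between diets or for live weight in limma. Of 22 genes of leptin signalling 3 were measured. JAK2, the kinase bound to the leptin receptor, differed by -0.16 (high-oleic minus control), STAT5A, a transcription factor that cytokine receptors activate, by 0.16, and PRKAA1, a catalytic subunit of AMP-activated kinase, by -0.21. Of 20 listed regulators of the leptin gene 2 were measured: NR3C1, the glucocorticoid receptor, differed by -0.29 and the clock factor ARNTL by -0.08. The median difference was -0.16 in the first list and -0.18 in the second, against -0.03 over all probe sets tested. All 5 genes had a negative correlation with LEP on S3 once the mean of the diet group was taken off, from -0.34 for JAK2 to -0.07 for ARNTL, which are weak values over 15 animals. Over all other probe sets only 47.2% had a positive correlation with S3, so a negative sign does not set these few genes apart.

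Of 39 genes of the retinoid pathway 6 were measured besides RBP4, with a median difference of 0.12. RXRG, a retinoid X receptor, stood at 7.64 ± 0.34 in high-oleic and 6.48 ± 0.52 in control animals, 1.17 apart (SE 0.25, limma adjusted p = 0.315). Its relative RXRB differed by 0.14. RBP7, a retinol-binding protein inside cells, differed by 0.10 and CRABP2 by 0.04. BCO2, which cleaves carotenoids, differed by 0.45, and RARRES1, a gene named for its response to retinoic acid, by -0.08. Less the diet means, RBP4 correlated at 0.52 with CRABP2, which was 8.27 in high-oleic animal 8 where the rest of that group had a median of 4.68, and at 0.12 with RXRG. Other adipokines were measured for 5 of 23: CCL2, a chemokine, differed by -0.36, IL6 by 0.14, ANGPTL4, which inhibits lipoprotein lipase, by 0.45, the glycoprotein GPNMB by -0.01 and METRNL by 0.11. The limma adjusted p was 0.999 for each of these other than RXRG.

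Correlations of LEP with genes of lipid storage and of the fasting response are given as a description, with no test. Less the diet means, 5 of 8 lipid storage genes had a positive r with S3, with a median of 0.32. Over all other probe sets 47.2% had a positive r, with a median of -0.03. PNPLA3, a lipase family member regulated by feeding, had r = 0.51 and ACACA, the acetyl-CoA carboxylase of fatty acid synthesis, r = 0.49. PCK1, which supplies glycerol phosphate and stands in both lists, had r = -0.45. All 5 measured genes of the 15 listed for fasting had a negative r with S3, with a median of -0.36 and the lowest for PDK4, a kinase that restrains glucose oxidation, at -0.54. RBP4 had a median r of 0.30 with the lipid storage genes and 0.29 with the fasting list. The 9 skeletal muscle markers all had a positive r with S3, with a median of 0.49, higher than that of the lipid storage genes. Of 15 lymphocyte markers 3 were measured, and 0 had a positive r with S3, with a median of -0.51. The lowest value of a single lymphocyte marker was 2.01, where the lowest value over all probe sets was 1.49. All these values share the same 15 arrays.

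The genes most like LEP were chosen by their r with S3 over the 15 animals after the mean of each diet was taken off. Over all other probe sets this r had a median of -0.03, and 4.24% were above 0.5. First was CRYAB, a small heat shock chaperone, at r = 0.872 (0.896 among control and 0.840 among high-oleic animals). Its signal was lowest in control animal 7 at 11.59 and highest in high-oleic animal 6 at 13.36, as for leptin on the highest animal. CD59, which guards cells against complement, had r = 0.854, SDCBP2, a scaffold protein, 0.798, HLCS, the enzyme that attaches biotin to carboxylases, 0.776 and FABP7, a fatty acid-binding protein, 0.775. FABP7 had a low mean signal of 3.11, with its highest values in control animals 4, 5 and 6, at 4.66, 4.31 and 3.96. Its r was 0.884 among control and 0.571 among high-oleic animals. Most opposite were IFRD1, a transcriptional co-regulator, at -0.833, GEM, a small GTP-binding protein, at -0.827 and EIF4EBP2, a repressor of translation initiation, at -0.800. Without control animal 1 these 8 lay between 0.73 and 0.85 on the positive and -0.80 and -0.76 on the negative side. CRYAB differed between diets by 0.30 and CD59 by 0.42, but SDCBP2 by -0.80 and FABP7 by -0.59, opposite in sign to leptin. None of these passed the test in limma, with an adjusted p of 0.999 for each.

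The genes most like RBP4 leaned on high-oleic animal 8. CDC42EP2, which binds the small GTPase CDC42, had r = 0.791, PGLYRP2, an enzyme that cleaves bacterial peptidoglycan, 0.764, ITGA5, the fibronectin receptor's alpha subunit, 0.757, HILPDA, a lipid droplet protein, 0.755 and STAT5A 0.748. Without high-oleic animal 8 they were 0.64, 0.60, 0.63, 0.58 and 0.64. HILPDA was 9.47 in that animal and 6.70 to 8.39 in the other 14. Most opposite were RTN3 and ATL3, proteins of the endoplasmic reticulum, at -0.740 and -0.738, and SH3BGRL2 at -0.720, which were -0.55, -0.68 and -0.62 without that animal. These relations were weaker on the control diet. Among control animals r was 0.34 to 0.74 for the genes most like RBP4 and -0.40 to -0.11 for the most opposite. Among high-oleic animals it was 0.77 to 0.95 and -0.95 to -0.84. Over all other probe sets the r with RBP4 had a median of 0.06, and 9.31% were above 0.5.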

How the data were processed

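The values are log2 signals of each probe set, in 1 table that the authors deposited, from 1 array per animal. GCOS and GCRMA are named per the submitters' processing notes. Versions, settings, slides and scan batches were not given in the sources used here. That the scale is log2 was judged from the range of values. The labels gave diet, number and weight of every animal. Names came from a platform annotation: of 3255 probe sets tested, 1455 had 1 symbol, 27 several and 1773 none, and list symbols were also matched through a RefSeq gene table. The 17 control probe sets were left out of the tests, so the 2 LEP probe sets among them were read from a fit that kept all 3272. No sequences of the members were used here.

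Effects of diet, live weight per 10 kg at fixed diet and their interaction were fitted with limma 3.58.1 in R 4.3.3 over all tested probe sets. Tests were two-sided and called at a Benjamini-Hochberg adjusted p of 0.05. Correlations used 100000 permutations over 15 animals and all orders within diets. The models were tested on simulated data with independent noise in each probe set and 200 of 3255 probe sets changed. For the slope and interaction fits the change was per 10 kg of live weight. Real probe sets vary together, so these shares may not hold for a single gene here. At a change of 1 log2 unit the diet fit recovered 49.5% (4 false calls among 103), the slope fit 45% (6 among 96) and the interaction fit 0% (0 calls). At 2 log2 units they recovered 96% (8 false calls among 200), 95% (19 among 209) and 16% (0 among 32). The members, lists and tests were chosen with earlier results of these data known. Genes were named by rule: all member probe sets, the 5 most like and 3 most opposite to each reference probe set (the brightest of the gene), and all measured genes of 4 lists; from the lists of lipid storage, fasting and cell markers values are given only for a few genes, chosen after their values were seen. Alternatives covered normalization, filters, variance models, covariates, a block, probe set means, an exact test and each animal left out.

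The animal numbers recur in both diets, and no label says that they pair animals. Deviations of same-numbered animals correlated between -0.16 and 0.30 over 7 pairs, with 4 over 0.1, so the numbers were not taken as a pairing. Figures were drawn with matplotlib 3.10.9.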

Additional observations from a re-analysis of the deposited data

Results flagged for a closer look

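Of 76 tests for a single animal apart from its diet group, 6 picked out a value, where chance alone gives about 3.80 for independent tests. Control animal 5 weighed 133 kg, while the rest of that group had a median of 114, and its ANGPTL4 signal was 9.20, while theirs had a median of 10.78. Control animal 4 had STAT5A at 4.90, with a median of 6.09 for the rest, and CDC42EP2 at 5.31, with 6.16 for the rest. It also had the lowest RBP4 signal on the control diet, 8.32. High-oleic animal 8 had CRABP2 at 8.27, with a median of 4.68 for the rest, and CDC42EP2 at 7.66, with 6.03 for the rest. Its RBP4 signal, 10.25, was the highest of the 15 animals. CDC42EP2 and STAT5A were among the 5 genes chosen for the highest r with RBP4 in these same animals. That their extreme values fell in animals of extreme RBP4 follows in part from that choice and is not separate evidence.

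The correlation of LEP on S3 with RBP4 was higher by 1.03 among high-oleic than among control animals. An approximate permutation p was 0.0169 for the difference and 0.00291 to 0.129 with single animals left out. By the same test 10.2% of 3254 probe sets had an unadjusted p under 0.05. The comparison was chosen after the values were seen.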

How the results depend on the processing

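The diet difference of LEP was positive in all 121 alternative values, from 0.34 to 1.24, and that of RBP4 in all 31, from 0.08 to 0.49. None passed the threshold. The filter on dim probe sets, the trend and robust variance models and the fit with control probe sets kept cannot change the estimate. Their sign was thus fixed in advance. All values are refits of the same animals, and the LEP values read a single transcript, so these counts are not independent evidence of a difference. Leaving out control animal 1 gave 0.41 on S2 and 0.44 on the 5′ probe set. Leaving out both animals with high interferon-induced genes, chosen after seeing the data, gave 0.41 on S3, 0.34 on S2 and 0.44 on the 5′ probe set. The animal number as a replicate block, in which high-oleic animal 8 drops out, gave 0.65 on S3 and 0.21 for RBP4 for the diet and 0.21 and -0.23 for the slope. It changed no call, and the limma unadjusted p for diet was 0.0325 on S3 (adjusted p = 0.799). The live weight slope turned to -0.0096 on the 5′ and -0.064 on the middle probe set without a diet term. The slope by diet term changed sign in some alternatives on every member except S2, where it was negative in all 18, from -1.89 to -0.0054. Under quantile normalization it was 0.37 on S3, 0.020 on the middle and 0.054 on the 5′ probe set, and with the block 0.34, 0.52 and 0.037. With single animals left out it was -1.56 to 0.11 on S3, -1.37 to 0.12 on the middle, -1.39 to 0.12 on the 5′ probe set and -0.42 to 1.34 for RBP4. The cause was not tested. The r of LEP with RBP4 was -0.15 less the diet means and -0.019 to 0.21 with single animals left out. The difference by diet between probe sets with single animals left out was -0.061 to 0.053 for S3 less S2, -0.13 to 0.021 for S3 less 5′ and -0.19 to -0.064 for S2 less middle, where an exact permutation p of 0.0493 was reached without control animal 1.

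Counts of probe sets past the threshold were 0 for diet, live weight and their interaction. With the spiked signal in the model diet gave 1, CKB. Live weight gave 1 without a diet term, without a gene name, and 3 within control animals, 2 of PDK4 and the same unnamed one. With single animals left out live weight gave 0 to 5 and the interaction 0 to 5. None of these was a LEP or RBP4 probe set, and the names were chosen once values were known. The count at an unadjusted p under 0.05 for diet was 128, against 194 with the block and 197 with array weights. Precision is limited by the 15 arrays.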
